A study of Mus musculus with 2 samples.

Results

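Mitochondrial fatty acid and ketone oxidation was described through 38 genes, chosen by name from the 38087 Ensembl gene identifiers in each deposited table, and 36 of them were listed in both libraries above 1 RPKM, the number of reads per kilobase and M reads, which is the lowest level the tables list. Parietal cells, which secrete gastric acid, were sorted from stomachs of C57BL/6 mice on a diet high in fat (HFD) or on control food, and RNA depleted of ribosomal RNA was sequenced. Each diet had 1 library, and values with HFD or with control diet are those of that library. The comparison had no replicates, no test of diet was possible, and every difference given here is between these 2 libraries. The labels do not give the number of mice per library, their age, the length of feeding, the composition of either diet or the markers used for sorting. In bulk RNA of this kind, fewer cells of a type and less RNA per cell cannot be told apart.

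Parietal cells are packed with mitochondria, because the proton pump that acidifies the stomach consumes large amounts of ATP. Long-chain fatty acids enter this pathway as CoA esters, cross into the matrix as carnitine esters and are shortened there by repeated turns of dehydrogenation, hydration, a further dehydrogenation and thiolysis, with the first electrons passed through the electron transfer flavoprotein to ubiquinone. Ketone bodies made in the liver enter the same organelle and are split to acetyl-CoA.

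Most of the pathway was slightly to moderately higher with HFD. The highest ratios were those of Acot2 (2.74), Hadhb (2.63) and Acad12 (2.59), all below 20 RPKM in both libraries. Next came the more abundant Acadvl (2.33) and Hadha (2.15). Of the 36 genes listed in both libraries, 27 were higher with HFD (75%), beside 48.7% of all genes and 47.8% of protein-coding genes listed in both, and 9 were lower, beside 51.3% and 52.2%. The median log2 ratio of HFD over control was 0.26 over the members, against -0.02 over all 12439 genes and -0.04 over 9997 protein-coding genes. Among protein-coding genes whose mean level lay within the range of the members, 47.9% were higher and the median was -0.04 as well. Over 2-fold higher were 5 members (Acadvl, Acad12, Hadha, Hadhb and Acot2), beside 10.6% of all genes and 7.00% of protein-coding genes. Over 2-fold lower was 1 member, Etfb, beside 13.1% of all genes and 12.5% of protein-coding genes. Just inside the 2-fold limit stood Hadha at a ratio of 2.15, and just outside it Acad11 at 1.96 and Acsl3 at 1.88. Against the median ratio of protein-coding genes, which no rescaling of a whole library can move relative to the members, 28 of 36 members lay above. The direction of many single genes depended on the scale: with each library scaled to its summed RPKM without the 20 most abundant genes, which moves every log2 ratio by -0.61 and the median of all genes to -0.63, 17 members turned lower, 10 of 36 were higher (beside 21% of all genes and 17.9% of protein-coding genes) and the median was -0.35. The 10 were Acsl3, Acadvl, Acadsb, Acad8, Acad11, Acad12, Hadha, Hadhb, Decr1 and Acot2, and each was higher under all 6 other scalings tried. Lower under all 6 were Etfb, Acot9, Acot13, Bdh1 and Mcat.

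**Figure D1:**
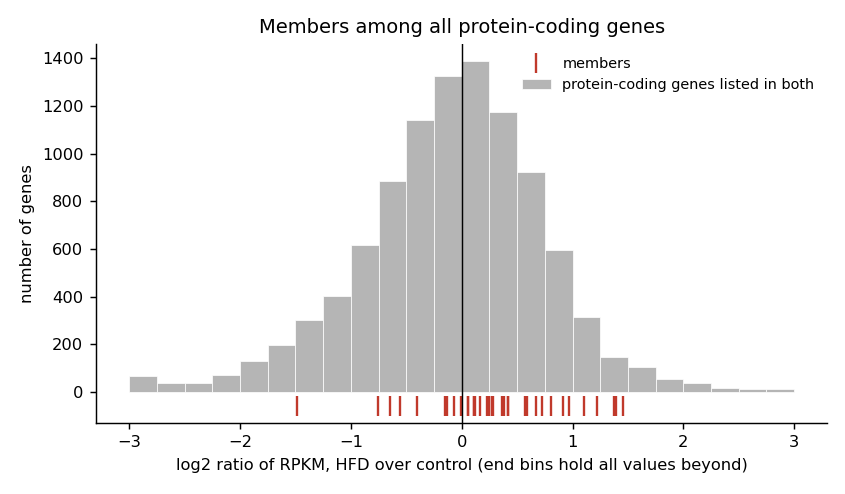
Histogram of the log2 ratio of RPKM, HFD over control, for 9997 protein-coding genes listed in both libraries (grey bars, number of genes), with the 36 listed members as red ticks under the axis. Of the ticks, 27 lie right of 0, and 10 do so when each library is scaled to its summed RPKM without the 20 most abundant genes.

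Depth estimated from the spacing of the deposited values was 25.5 M reads with HFD and 9.84 M with control diet, which puts 69.0 to 31328 estimated reads behind each listed member with HFD and 44.9 to 6376 with control diet. Bounds printed beside ratios are 95% exact conditional binomial intervals on these reads. They are approximate and reflect counting error alone, not differences from mouse to mouse. By this measure the interval lay wholly above 1 for 25 members and wholly below 1 for 7, and it held 1 for the other 4, Crat, Acsm3, Etfa and Acat1. At this depth most genes passed: the interval lay wholly above 1 for 37.9% of genes with a length and 37.8% of protein-coding genes, and wholly below 1 for 40.4% and 42.1%. The defining pump genes were abundant, with Atp4a at 4997 RPKM with HFD and 4324 RPKM with control diet, and Atp4b at 5639 RPKM with HFD and 4375 RPKM with control diet. Of 18 parietal markers 15 were higher with HFD, with a median log2 ratio of 0.54 and summed levels of 16244 RPKM with HFD and 14624 RPKM with control diet. Their part in the ratios of the members was not tested. Markers of other cells also differed, and their part in the ratios of the members was not tested either. Pit cell markers summed to 36084 RPKM with HFD and 14598 RPKM with control diet, with 4 of 6 higher, a median log2 ratio of 0.21 and most of the sum in Gkn1 and Gkn2. Chief cell markers summed to 46051 RPKM with HFD and 102885 RPKM with control diet, with 1 of 4 listed in both higher and Cpb1 at 0 with HFD. Larger fold differences lay elsewhere: the sums with HFD over those with control diet were 0.133 for 8 pancreatic acinar genes, of which 6 were at 0 with HFD, 0.143 for 6 smooth muscle genes, 0.146 for 8 endocrine genes (Tph1 at 0 with HFD), 0.328 for 7 fibroblast genes (Lum and Pdgfra at 0 with HFD), 0.387 for 7 genes of proliferating cells and 3.36 for 10 leukocyte genes, of which 6, Ptprc among them, were at 0 in both libraries. The leukocyte sum with HFD came from 3 genes only, Cd74, H2-Aa and H2-Eb1. Lyz2 went the other way, at 0 with HFD and 1.35 RPKM with control diet. Of other tissues with much fat metabolism, the adipocyte genes Adipoq, Plin1, Lep and Retn, the muscle genes Myh6, Myh7, Ckm, Actn2 and Ryr2, and the liver genes Cyp2e1, Cps1 and Fgb were listed at 0 in both libraries. The summed levels of these lists were 6.03 RPKM with HFD and 18.2 RPKM with control diet for 6 adipocyte genes, 3.48 RPKM with HFD and 2.27 RPKM with control diet for 7 muscle genes, and 1589 RPKM with HFD and 1336 RPKM with control diet for 6 liver genes, of which Apoa1 held 1576 RPKM with HFD and 1260 RPKM with control diet. Ttr of the liver list went the other way, at 12.8 RPKM with HFD and 74.9 RPKM with control diet. Listed with control diet but at 0 with HFD were Alb (1.13 RPKM), Cidec (1.55 RPKM) and Acta1 (2.27 RPKM). Mb was listed with HFD only, and Fabp4 stood at 6.03 RPKM with HFD and 16.7 RPKM with control diet.

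The members spanned a wide range of levels, and their order was much alike in both libraries. With HFD the 36 listed genes ran from 1.19 RPKM (Acot9) to 182 RPKM (Oxct1) with a median of 28.9 RPKM, and with control diet from 1.85 RPKM (Acad12) to 175 RPKM (Oxct1) with a median of 25.5 RPKM. The median listed protein-coding gene stood at 7.31 RPKM with HFD and 7.0 RPKM with control diet, and 31 and 29 members lay above it. In each library 15 members were in the top 10% of protein-coding genes. The rank correlation of the members' levels between the libraries was 0.92 (Spearman's rho over 36 genes, a description across genes, which share the lengths and the annotation used for both tables). Summed over the 38 genes, the level was 1576 RPKM with HFD and 1303 RPKM with control diet, a ratio of 1.21.

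**Figure D2:**
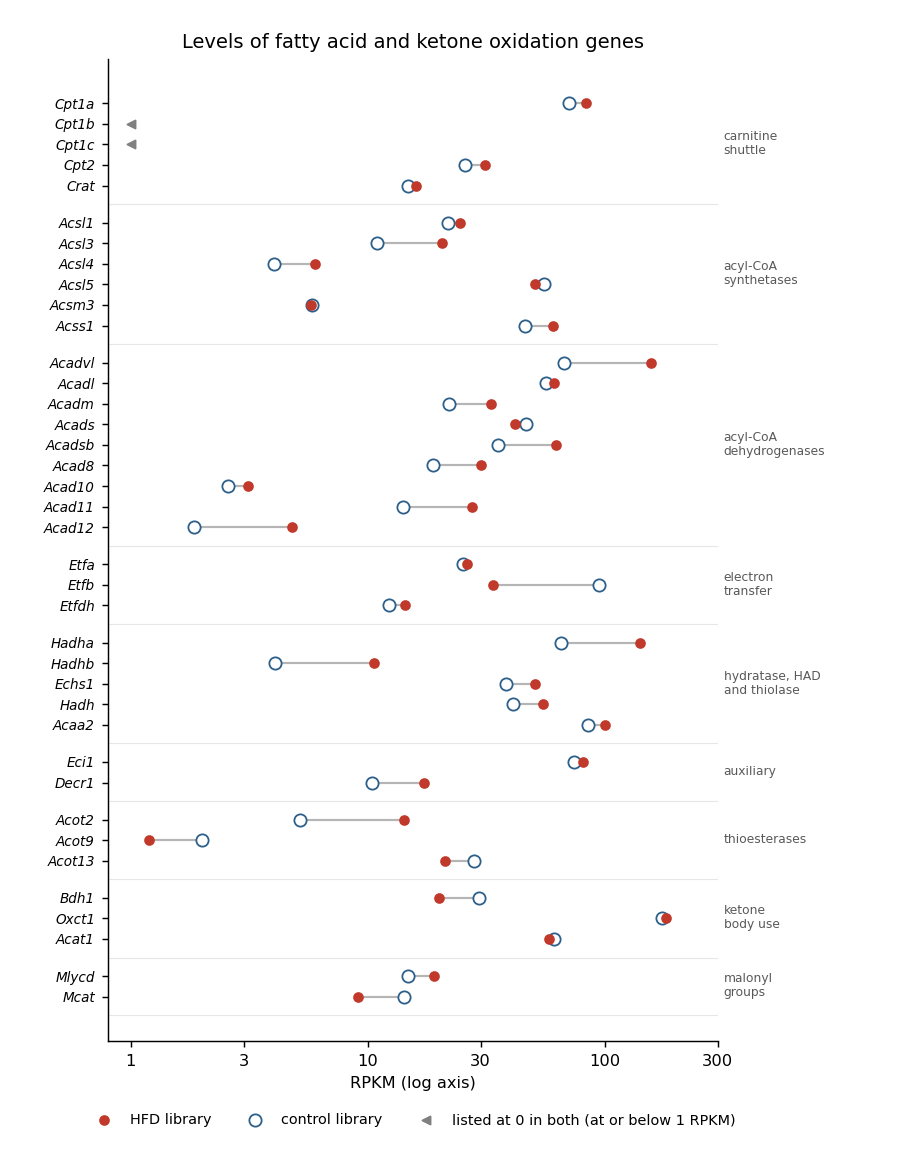
RPKM (log axis) of each member with HFD (red, filled) and with control diet (blue, open), ordered by role, with grey lines joining the values of a gene. Oxct1 is the highest member in both libraries, and Cpt1b and Cpt1c (grey arrowheads) are listed at 0 in both.

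Of the forms of the gatekeeper of the carnitine shuttle, 1 was listed above 1 RPKM. Cpt1a (ENSMUSG00000024900, chromosome 19, mm10), the form of liver and most epithelia and the step that malonyl-CoA inhibits, stood at 83.6 RPKM with HFD and 70.6 RPKM with control diet, a ratio of 1.18 (interval 1.15 to 1.22). Cpt1b, the muscle form, and Cpt1c, the neuronal form, were both listed at 0, that is at or below 1 RPKM, in both libraries. Of the stretches of Cpt1b, 78.6% also lie on the same strand in Gm44502, annotated as a readthrough transcript and without an entry in the tables used here, so how reads of Cpt1b were counted is uncertain. Cpt2, which returns the acyl group to CoA on the matrix side, stood at 31.2 RPKM with HFD and 25.9 RPKM with control diet, a ratio of 1.21 (1.10 to 1.32). Crat, which moves acetyl groups between carnitine and CoA, stood at 16.0 RPKM with HFD and 14.8 RPKM with control diet. These ratios were small, the interval of Crat (0.99 to 1.17) held 1, and all 3 were below 1 with libraries scaled to summed RPKM without the 20 most abundant genes. The carrier that exchanges the carnitine esters, Slc25a20, is not among the 38 genes and stood at 17.5 RPKM with HFD and 11.9 RPKM with control diet.

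Among the enzymes that activate acids with CoA, the long-chain forms Acsl1 and Acsl5 were close between the libraries, and Acsl3 and Acsl4 were higher with HFD. Acsl5, the highest long-chain form, stood at 50.7 RPKM with HFD and 55.6 RPKM with control diet, a ratio of 0.91 (0.87 to 0.95). Acsl1, the main form of oxidative tissues, stood at 24.7 RPKM with HFD and 22 RPKM with control diet, a ratio of 1.12 (1.07 to 1.18), below 1 after the trend on length and GC content was subtracted. Acsl3, known from lipid droplets and the endoplasmic reticulum, stood at 20.7 RPKM with HFD and 11 RPKM with control diet, a ratio of 1.88 (1.71 to 2.08). Acsl3 thus had the largest ratio of the group, and it stayed above 1 under all 6 other scalings. Acsl4, which prefers arachidonate, stood at 5.98 RPKM with HFD and 4.03 RPKM with control diet, a ratio of 1.48 (1.28 to 1.74), below 1 only with libraries scaled to summed RPKM without the 20 most abundant genes. Acss1, which activates acetate in mitochondria, was the most abundant of all 6 with HFD at 60.5 RPKM, against 46.4 RPKM with control diet, a ratio of 1.31 (1.24 to 1.38). Acsm3, a medium-chain form, was nearly equal at 5.80 RPKM with HFD and 5.82 RPKM with control diet, and 34.0% of its 50-base stretches also lie, on the other strand, in Eri2.

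The acyl-CoA dehydrogenases, which take the first electrons from each acyl chain, were the group with the highest median ratio among those of more than 2 genes. Of 9 members 8 were higher with HFD, with a median log2 ratio of 0.67, and 5 of 9 were higher with libraries scaled to summed RPKM without the 20 most abundant genes. Beside these counts stood 48.7% and 21% of all genes. Their summed level was 421 RPKM with HFD and 265 RPKM with control diet, a ratio of 1.59. Acadvl (ENSMUSG00000018574, chromosome 11, 70010183 to 70015411, minus strand, mm10), the inner-membrane enzyme for very long chains, stood at 156 RPKM with HFD and 67.2 RPKM with control diet. Its ratio of 2.33 (2.21 to 2.45) was the largest among members above 20 RPKM in both libraries, a limit that was not among the planned settings. Of its 50-base stretches 26.9% also lie, on the opposite strand, in the transcripts of the neighbouring gene Dvl2, which stood at 18.9 RPKM with HFD and 13.9 RPKM with control diet.

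The other dehydrogenases included genes well above 1 in ratio and genes close to 1. Acadl, the long-chain enzyme, stood at 61.3 RPKM with HFD and 56.5 RPKM with control diet, a ratio of 1.08 (1.01 to 1.16). Acadm, the medium-chain enzyme, stood at 33.2 RPKM with HFD and 22.1 RPKM with control diet, a ratio of 1.51 (1.40 to 1.63). With libraries scaled to summed RPKM without the 20 most abundant genes, log2 ratios were -0.49 for Acadl and -0.01 for Acadm. Acads, the short-chain enzyme, stood at 42.1 RPKM with HFD and 46.6 RPKM with control diet, a ratio of 0.90 (0.84 to 0.97), but above 1 with libraries scaled to summed RPKM of protein-coding genes and after the trend on length and GC content was subtracted. The ratios therefore did not follow chain length step by step, and the level of Acadvl relative to Acadl was 2.55 with HFD and 1.19 with control diet. The 2 dehydrogenases of branched-chain amino acids were both higher: Acadsb of the isoleucine path at 62.3 RPKM with HFD and 35.6 RPKM with control diet (ratio 1.75, 1.67 to 1.83), and Acad8 of the valine path at 30.1 RPKM with HFD and 18.9 RPKM with control diet (ratio 1.59, 1.47 to 1.72). Acad11, a less studied family member, stood at 27.7 RPKM with HFD and 14.1 RPKM with control diet, a ratio of 1.96 (1.85 to 2.08). Acadsb, Acad8 and Acad11 stayed above 1 under all 6 other scalings. Acad10 and Acad12, adjacent genes on chromosome 5, were low: Acad10 stood at 3.13 RPKM with HFD and 2.57 RPKM with control diet, and Acad12 at 4.79 RPKM with HFD and 1.85 RPKM with control diet, a ratio of 2.59 (2.13 to 3.16). These neighbours share sequence, with 16.8% of the stretches of Acad10 found in Acad12, so their separate values are uncertain.

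**Figure D3:**
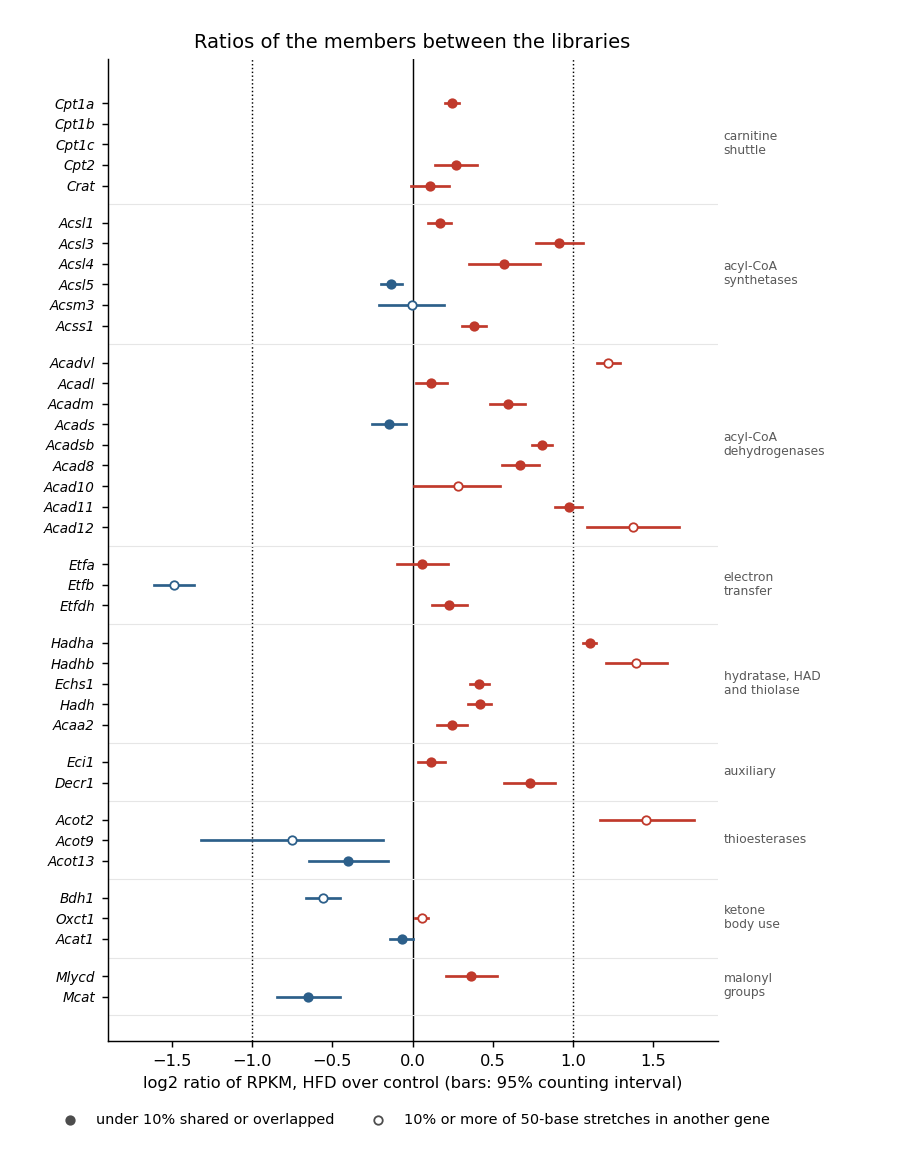
Log2 ratio of RPKM, HFD over control, of each member with its 95% counting interval (bars), in red where above 0 and blue where below, with dotted lines at 2-fold. Open points mark members with 10% or more of their 50-base stretches in another gene, which holds for Acadvl, Acad12, Hadhb and Acot2 of the 5 beyond 2-fold on the right, and all points move left by 0.61 when libraries are scaled to summed RPKM without the 20 most abundant genes.

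The electron transfer flavoprotein, which collects electrons from the acyl-CoA dehydrogenases of the mitochondrial matrix and inner membrane, differed between its subunits. Etfb (ENSMUSG00000004610, chromosome 7, 43444083 to 43457800, plus strand, mm10), the beta subunit, was at 33.9 RPKM with HFD and 95 RPKM with control diet, 2.80-fold lower with HFD (2.57 to 3.05). Etfa, the alpha subunit, was nearly equal at 26.3 RPKM with HFD and 25.2 RPKM with control diet, a ratio of 1.04 (0.94 to 1.16). The protein holds 1 copy of each subunit, and the level of Etfb over that of Etfa was 1.29 with HFD and 3.77 with control diet. Etfb was lower under each of the 6 other scalings. Etfdh, which passes the electrons on to ubiquinone, stood at 14.4 RPKM with HFD and 12.3 RPKM with control diet, a ratio of 1.17 (1.09 to 1.26), below 1 with libraries scaled to summed RPKM without the 20 most abundant genes and after the trend on length and GC content was subtracted. Sequence is shared here too: 44.8% of the stretches of Etfb also lie in other annotated transcripts, nearly all in Gm45233, annotated as a readthrough transcript and without an entry in the tables used here, so the value of Etfb is uncertain. Of the stretches of Etfa 3.04% lie in other genes, chiefly the processed pseudogene Gm15285, listed at 201 RPKM with HFD and 144 RPKM with control diet.

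The trifunctional protein carries out the remaining 3 steps for long chains on the inner membrane, and both of its subunit genes were over 2-fold higher with HFD. Hadha (ENSMUSG00000025745, chromosome 5, 30118304 to 30155162, minus strand, mm10), the hydratase and dehydrogenase subunit, was at 141 RPKM with HFD and 65.6 RPKM with control diet, a ratio of 2.15 (2.09 to 2.21). Hadhb (ENSMUSG00000059447, chromosome 5, 30155248 to 30184593, plus strand, mm10), the thiolase subunit, was at 10.6 RPKM with HFD and 4.05 RPKM with control diet, a ratio of 2.63 (2.31 to 3.0). Both ratios stayed above 1 under all 6 other scalings, at log2 values of 0.50 for Hadha and 0.79 for Hadhb on the lowest. The subunits are joined in equal numbers, yet Hadha was 13.2 times as high as Hadhb with HFD and 16.2 times with control diet. A processed pseudogene, Gm13910, shares 89.1% of its 50-base stretches with Hadhb transcripts and was listed at 133 RPKM with HFD and 67.3 RPKM with control diet, close to the level of Hadha. With the estimated reads of Hadhb and Gm13910 added together, an alternative chosen after the values were seen, the ratio was 2.11 (1.99 to 2.2). The level of Hadhb alone is therefore uncertain, while its ratio with or without the pseudogene was above 2, though not after the trend on exon length and GC content was subtracted (log2 0.99).

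Hadha and Hadhb lie head to head, and the plus-strand bases between the 2 annotated genes are shown because both genes were higher together. The stretch between the GENCODE bounds is 85 bases long at chr5:30155163-30155247 (letters from RefSeq, GRCm38.p6), with 2 GC boxes, GGGCGG on this strand, in capitals. Between the RefSeq starts of the 2 genes lie 272 bases.
between Hadha and Hadhb: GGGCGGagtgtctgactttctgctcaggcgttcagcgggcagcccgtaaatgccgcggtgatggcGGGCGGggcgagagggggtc
Promoter windows of 300 bases, 250 before and 50 after the RefSeq start, were found for 31 of the 38 members, 33 windows in all, and were searched on both strands. GGGCGG was in 21 of 33 member windows and in 35.7% of all 32851 windows. The half-site AAGGTCA, read by estrogen-related receptors, was in 1 member window, that of Acadm, and in 4.72% of all windows. Its extended form TNAAGGTCA, which contains the half-site, was in none of the 33 and in 1.28% of all, and the direct repeat DR1, read by PPAR with RXR, was in none and in 0.0396% of all. The start of the Acadm window, at chr3:153944834-153944893 on the minus strand, is given with the reverse complement of the half-site in capitals, which begins 249 bases before the RefSeq start.
upstream of Acadm: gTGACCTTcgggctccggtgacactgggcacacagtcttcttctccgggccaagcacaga
These matches describe letters in the windows only and say nothing of binding.

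The enzymes that complete the spiral for shorter chains were higher by less than those of the trifunctional protein. Echs1, the short-chain hydratase, stood at 51.0 RPKM with HFD and 38.3 RPKM with control diet, a ratio of 1.33 (1.28 to 1.39). Hadh, the short-chain hydroxyacyl dehydrogenase, stood at 54.9 RPKM with HFD and 41.1 RPKM with control diet, a ratio of 1.33 (1.27 to 1.40). Acaa2, the matrix thiolase, was the most abundant of these at 101 RPKM with HFD and 85 RPKM with control diet, a ratio of 1.19 (1.11 to 1.26). Thus all 5 genes of these steps were higher, but with libraries scaled to summed RPKM without the 20 most abundant genes only Hadha and Hadhb remained so. Of the auxiliary enzymes for unsaturated chains, Decr1, a dienoyl-CoA reductase, stood at 17.3 RPKM with HFD and 10.4 RPKM with control diet, a ratio of 1.66 (1.49 to 1.85). Eci1, the isomerase that shifts double bonds, stood at 80.8 RPKM with HFD and 74.6 RPKM with control diet, a ratio of 1.08 (1.02 to 1.15). Decr1 stayed above 1 under all 6 other scalings and Eci1 under 5.

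Thioesterases, which release free acids from CoA, had ratios on both sides of 1. Acot2, the mitochondrial long-chain enzyme, stood at 14.2 RPKM with HFD and 5.19 RPKM with control diet, and its ratio of 2.74 (2.2 to 3.37) was the largest of all members. It shares 24.5% of its stretches with Acot1, its cytosolic near-copy on chromosome 12, which was lower at 3.87 RPKM with HFD and 5.85 RPKM with control diet. Acot13, a small tetrameric thioesterase, stood at 21.3 RPKM with HFD and 28.1 RPKM with control diet, 1.32-fold lower with HFD (1.11 to 1.57). Acot9 was the lowest listed member with HFD at 1.19 RPKM, against 2.01 RPKM with control diet. Its copy Acot10, which holds its shared stretches, stood at 11.7 RPKM with HFD and 8.16 RPKM with control diet. These values of Acot2 and Acot9 are therefore uncertain, since the sources used here do not give the rule by which shared reads were counted.

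On the deposited scale, ketone use was abundant and nearly equal between the libraries, apart from its first enzyme. Oxct1 (ENSMUSG00000022186, chromosome 15, mm10), the transferase that activates acetoacetate and that liver lacks, stood at 182 RPKM with HFD and 175 RPKM with control diet, a ratio of 1.04 (1.01 to 1.07). It was higher than 98.9% of the protein-coding genes listed with HFD. Acat1, which splits acetoacetyl-CoA, stood at 58.1 RPKM with HFD and 61.0 RPKM with control diet, a ratio of 0.95 (0.91 to 1.00). Bdh1, which oxidizes hydroxybutyrate to acetoacetate, was at 20.1 RPKM with HFD and 29.5 RPKM with control diet, 1.47-fold lower with HFD (1.37 to 1.58), and stayed lower under all 6 other scalings. With libraries scaled to summed RPKM without the 20 most abundant genes, log2 ratios were -0.55 for Oxct1, -0.67 for Acat1 and -1.16 for Bdh1. Of the 50-base stretches of Oxct1, 11.2% also lie on the opposite strand in BC037032. Of those of Bdh1, 11.1% lie on the opposite strand in Gm15743.

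The malonyl genes had opposite directions. Mlycd, which breaks down malonyl-CoA and so relieves the block on Cpt1a, stood at 19.0 RPKM with HFD and 14.8 RPKM with control diet, a ratio of 1.29 (1.16 to 1.44), below 1 with libraries scaled to summed RPKM without the 20 most abundant genes. Mcat, which loads malonyl groups for fatty acid synthesis inside mitochondria, stood at 9.12 RPKM with HFD and 14.3 RPKM with control diet, 1.57-fold lower with HFD (1.37 to 1.80) and lower under all 6 other scalings. Acacb, the carboxylase that makes malonyl-CoA at the outer membrane and no member, stood at 50.3 RPKM with HFD and 37.3 RPKM with control diet, a ratio of 1.35 (1.3 to 1.40). Its ratio too was below 1 under the scaling named for Mlycd, which moves its log2 ratio of 0.43 by -0.61.

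Genes around the pathway had ratios on both sides of 1, on the deposited scale most often above it among peroxisomal genes. Of 14 peroxisomal genes listed in both libraries 10 were higher with HFD, beside 48.7% of all genes, with a median log2 ratio of 0.44. With libraries scaled to summed RPKM without the 20 most abundant genes, 3 of the 14 were higher, near the share of all genes, 21%. Abcd3, a peroxisomal fatty acid importer, had a ratio of 1.54, Scp2 and the thiolase Acaa1a had ratios of 1.29 and 1.27, and the bifunctional enzyme gene Ehhadh, the highest, had a ratio of 1.93 (1.71 to 2.18). Pecr, an enoyl-CoA reductase, was the lowest at 1.5 RPKM with HFD and 6.35 RPKM with control diet. Of 16 genes of fatty acid entry and binding 7 were higher and 9 lower, beside 48.7% and 51.3% of all genes, with a median log2 ratio of -0.19. Cd36, the fatty acid transporter, was the highest at 58.2 RPKM with HFD and 24.6 RPKM with control diet, a ratio of 2.37 (2.21 to 2.55), and Fabp3, a fatty acid binding protein, the lowest at 2.0 RPKM with HFD and 9.16 RPKM with control diet. Lpl, the lipase that frees acids from lipoproteins, had a ratio of 1.76, Slc27a4 1.13 and the triglyceride lipase gene Pnpla2 0.88.

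Of 22 regulators listed in both libraries 11 were higher and 11 lower, beside 48.7% and 51.3% of all genes. Ppargc1a, the coactivator of mitochondrial genes, was the highest at 8.07 RPKM with HFD and 2.99 RPKM with control diet, a ratio of 2.70 (2.32 to 3.15). Ppara, the receptor that drives fatty acid oxidation in liver, was the lowest of these 22, 2.70-fold lower with HFD. It stood at 1.16 RPKM with HFD, near the lowest level listed, and 3.12 RPKM with control diet. The related receptor gene Pparg went the other way, at 43.8 RPKM with HFD and 18.2 RPKM with control diet, a ratio of 2.40 (2.19 to 2.64). Ppard had a ratio of 0.80. Pdk4 of the same list was at 0 with HFD, that is at or below 1 RPKM, and at 3.08 RPKM with control diet. It has no ratio and is not ranked. Esrrg and Esrra, estrogen-related receptors of mitochondrial genes, had ratios of 1.52 (1.46 to 1.59) and 1.28 (1.2 to 1.36), at 67.3 RPKM for Esrrg with HFD and 44.2 RPKM with control diet. Ucp2, a mitochondrial carrier, was the most abundant of this list at 153 RPKM with HFD and 136 RPKM with control diet. Of 23 genes in a list of other mitochondrial fatty acid and ketone genes 13 were higher, beside 48.7% of all genes, with a median log2 ratio of 0.05. That list also holds 12 genes of branched-chain amino acid oxidation and the cytosolic Acot1. The highest, Mcee of propionate breakdown, stood at 71.2 RPKM with HFD and 29.6 RPKM with control diet, a ratio of 2.40 (2.11 to 2.73), and the lowest, Acsf2, an acyl-CoA synthetase, at 2.18 RPKM with HFD and 5.03 RPKM with control diet. Hsd17b10, a hydroxyacyl dehydrogenase, had a ratio of 2.10, Hibadh 1.11 and Pccb 0.94. Under the scaling to summed RPKM without the 20 most abundant genes, 8 of these 23, 4 of the 22 regulators and 2 of the 16 entry and binding genes were higher. Beside them stood 21% of all genes and 17.9% of protein-coding genes.

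**Figure D4:**
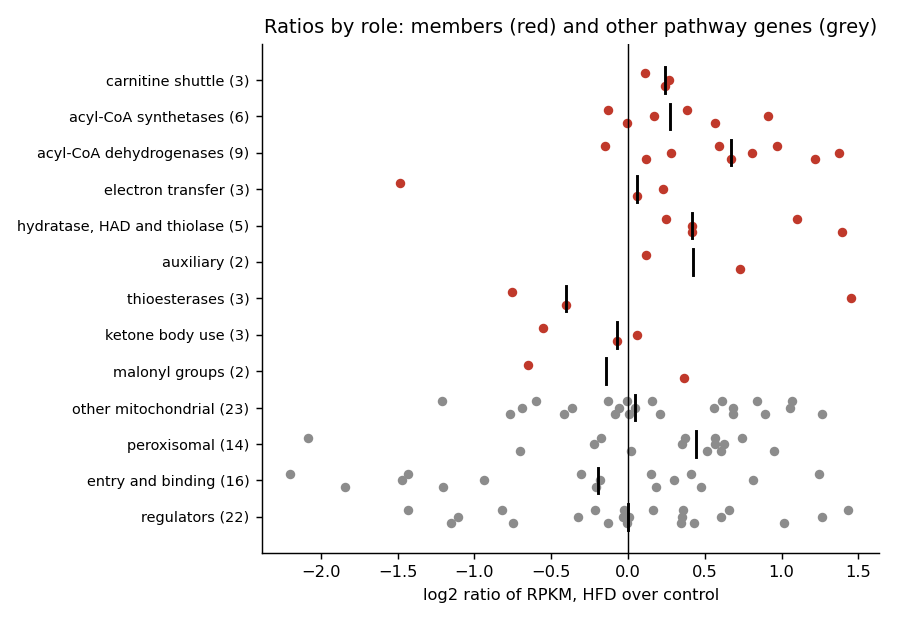
Log2 ratio of RPKM, HFD over control, of each gene listed in both libraries (points, number per row in parentheses), by role for the members (red) and for other pathway genes (grey), with black lines at the median of each row. The dehydrogenases lie mostly right of 0 (8 of 9, and 5 of 9 when libraries are scaled to summed RPKM without the 20 most abundant genes), whereas entry and binding genes are spread on both sides.

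Gene length moved with the ratio. Among protein-coding genes the median log2 ratio was -0.25 below 1500 bases of exon and 0.06 between 6000 and 10000 bases, and of the members none of 2 was higher below 1500 bases (Etfb and Acot13) and all of 9 were higher between 6000 and 10000 bases. After the trend on exon length and GC content over protein-coding genes was subtracted, 25 of 36 members were higher, with a median of 0.31. Beside them 47.1% of protein-coding genes were higher, with a median of -0.05. The log2 ratio of Etfb was then -1.15 instead of -1.49. Hadhb then lay just under 2-fold at a log2 ratio of 0.99, while Acadvl was at 1.40 and Hadha at 1.10. Directions turned for 4 members: Acsl1 (-0.08), Etfa (-0.02) and Etfdh (-0.02) were lower, and Acads (0.22) was higher. Of the 36 members, 10 share 10% or more of their 50-base stretches with another gene. Without these 10, 21 of 26 were higher, beside 47.8% of protein-coding genes, and the median was 0.26. Only Hadha was then over 2-fold higher, beside 6.97% of protein-coding genes, and none was over 2-fold lower, beside 12.5%. The reason is that Acadvl, Acad12, Hadhb, Acot2 and Etfb are among the 10.

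**Figure D5:**
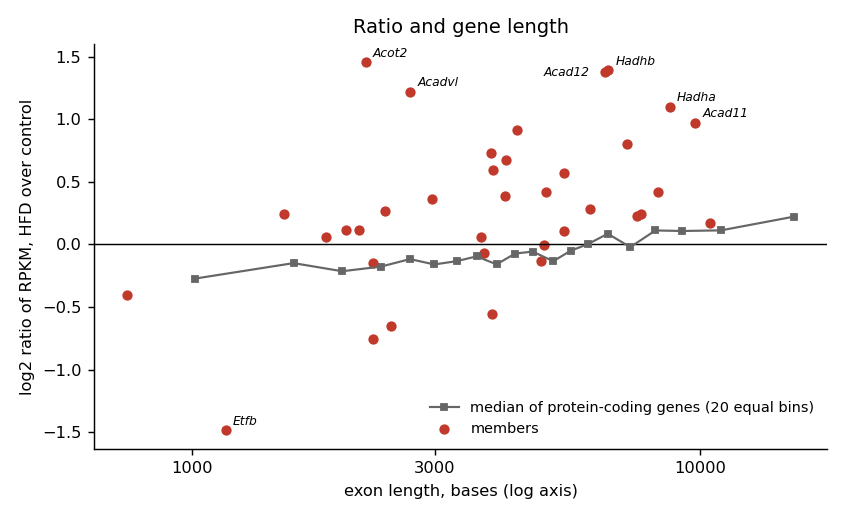
Log2 ratio of RPKM, HFD over control, against exon length in bases (log axis) for the 36 listed members (red points) and the median of protein-coding genes in 20 bins of equal size (grey line). The grey line lies below 0 for short genes and above 0 for long ones, and Etfb is the short gene with the lowest ratio.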

How the data were processed

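Per the file headers the deposited values are RPKM, and the values show that the authors listed them as log2 of RPKM with no pseudocount, with genes at or below 1 RPKM listed as 0 (largest value 18.2). The submitters' processing notes name mm10 and bedtools 2.25.0; the sources used here do not give the aligner, annotation release and counting rule. Per the labels' protocols, RNA was ribosome-depleted and made into libraries for Ion sequencing. Of the identifiers, 36308 matched GENCODE M21 (GRCm38), which gave symbols, positions and exon lengths. Ratios are of RPKM without pseudocount over genes listed in both libraries. Depth came from single-exon genes, whose RPKM times length should fall on multiples of 1 read. Of values of up to 12 reads, 49.7% in the HFD and 35.6% in the control library were whole within 0.005, and the others were not. By chance 1% would be whole at a fixed step, but the step was picked as the best of many, which raises that share. Authors' gene lengths are unknown, so estimated reads and levels between genes are approximate. No count test was run. The calculations were tested on simulated data. Every member is named. Of each other list, the rule names the 4 most abundant genes and those at either end of the ratios, given 50 estimated reads. Further genes (Slc25a20, Pdk4, Pparg, Ppard, copies and neighbours) were chosen after their values were seen. Some genes that this rule names are not reported here. Members and lists were chosen with earlier results of these data known. Python 3.11.15, numpy, pandas and scipy 1.17.1 were used.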

Additional observations from a re-analysis of the deposited data

How the results depend on the processing

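The number of members higher, those over 2-fold either way and the median were recomputed under 11 planned settings and 2 scalings added after the data were seen. The 3 ways of entering a listed 0 and the filter of 50 estimated reads could not alter the members counted as higher, since all 36 are listed in both libraries and pass. Under the 4 planned scalings, the filter of 5 RPKM and the length and GC trend, 25 to 28 members were higher, 4 to 6 over 2-fold higher, 1 over 2-fold lower, and the median stayed between 0.22 and 0.31. Of protein-coding genes, 45.8% to 51.0% were higher under these settings, 6.22% to 8.08% over 2-fold higher and 11.1% to 13.3% over 2-fold lower. Leaving out members that share sequence gave 1 of 26 over 2-fold higher (beside 10.6% of all genes) and 0 lower (beside 13.1%). With summed RPKM without the 20 most abundant genes the median reversed to -0.35, with 10 members higher, 0 over 2-fold higher (beside 4.53% of all genes) and 5 lower (beside 32.1%); the shift itself is -0.61 for every gene. With summed RPKM of protein-coding genes, a shift of 0.29, 9 were over 2-fold higher (beside 17.6% of all genes) and the median was 0.55, against 0.27 over all genes. No paired analysis was possible because each diet has 1 library. Depth limits the low members most: the interval of Acot9 ran from 0.40 to 0.88.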

Other observations

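Oxidation of branched-chain amino acids feeds the same flavoprotein, and its 12 genes outside the 38 members, gathered after their values were seen, had ratios on both sides of 1. They are part of the 23 other mitochondrial genes described above, of which the remaining 11 were 5 higher and 6 lower, with a median log2 ratio of -0.06. Of the 12, 8 were higher, Mut only barely, and 4 lower (6 higher with libraries scaled to summed RPKM without the 20 most abundant genes), with a median log2 ratio of 0.42 (0.23 after the trend on length and GC content was subtracted) and summed levels of 487 RPKM with HFD and 354 RPKM with control diet. Of all genes, 48.7% were higher, and 21% under that scaling. Ivd, the dehydrogenase of the leucine path, stood at 51.0 RPKM with HFD and 28.5 RPKM with control diet. Hibch, a hydrolase of the valine path, stood at 22.4 RPKM with HFD and 10.8 RPKM with control diet, a ratio of 2.08. Subunits of 1 enzyme differed in ratio: Pcca and Pccb, of propionyl-CoA carboxylase, had ratios of 1.86 and 0.94, and Mccc1 and Mccc2, of methylcrotonyl-CoA carboxylase, ratios of 1.61 and 0.62. In each pair the first gene has the longer exon length. After the trend on length and GC content was subtracted, log2 ratios were 0.79 for Pcca and 0.02 for Pccb. They were 0.37 for Mccc1 and -0.60 for Mccc2. Mut, the mutase that ends the path, was at 27.1 RPKM in both libraries.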
